A study of Arabidopsis thaliana with 6 samples.

Results

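Catalases, superoxide dismutases (SODs) and ascorbate peroxidases (APXs) are the main enzymes that remove superoxide and hydrogen peroxide in Arabidopsis. The loci studied here were taken from the expression table by a list of gene IDs and number 10 of its 24379 genes. They are the catalase genes CAT1, CAT2 and CAT3, the SOD genes CSD1, CSD2, CSD3, FSD1 and MSD1, and the APX genes APX1 and APX2. Transcripts were measured by RNA-seq in wild-type seedlings, 7 days old and grown hydroponically in modified MGRL nutrient solution. There were 3 Al samples and 3 control samples of roots. The study's methods state that Al seedlings received 25 µM AlCl3 for 3 h, that control seedlings received 0 µM, and that the root tip region was taken, whereas the labels give the tissue as roots. All 6 samples share the genotype and no transgene was involved. The labels do not say whether replicates came from separate cultures, so the p-values measure only the spread between these samples, which may be technical.

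SODs convert superoxide to hydrogen peroxide and oxygen, and they differ in the metal at the active site (copper with zinc, iron or manganese) and in their place in the cell. Catalases break hydrogen peroxide down in peroxisomes, where fatty acid oxidation and photorespiration release it, and they need no reductant. APXs reduce hydrogen peroxide with ascorbate in the cytosol, plastids, mitochondria and peroxisomes, and the oxidized ascorbate is then regenerated by the ascorbate-glutathione cycle. Reactive oxygen species are known to accumulate in root tips under Al stress.

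After Al, the transcript of APX1, the main cytosolic APX, was 1.88 times its control level, and that of CSD1, the cytosolic Cu/Zn SOD, was 1.47 times its control level. The catalase transcripts CAT2 and CAT3 fell to 0.695 and 0.698 of their control levels. CAT1, CSD2, CSD3, FSD1 and MSD1 did not pass the test, and APX2 was close to 0 in both groups. Of the 9 members that passed the filter on low values (1 FPKM or more in 3 or more samples), 2 were higher, 2 were lower and 5 were not called by limma on log2(FPKM + 1), at a Benjamini-Hochberg adjusted p under 0.05. FPKM is the number of fragments on a transcript scaled to its length and to the total fragments of the sample. Al changed much of the transcriptome by the same test. Of the 18463 genes tested, 59.8% were called, 21.3% as higher and 38.5% as lower, and the median log2 change was -0.13. The median over the 9 tested members was -0.15. The share of members called, 4 of 9, did not exceed that background. In CSD1 and APX1 every Al sample lay above every control sample, as did 23.3% of the genes tested, and in CAT2 and CAT3 every Al sample lay below, as did 42.9%. In bulk samples, fewer cells of a type and less RNA per cell cannot be told apart.

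**Figure D1:**
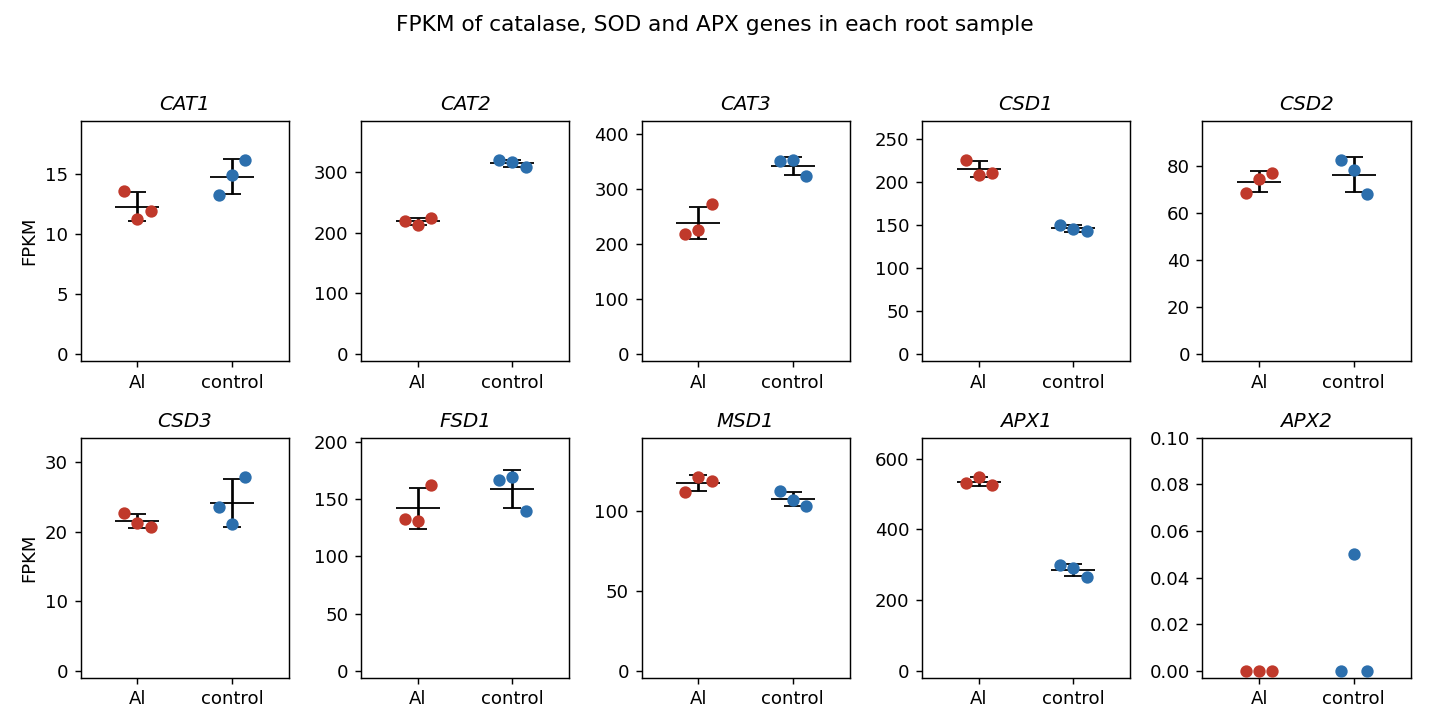
FPKM (linear axis from 0) of each of the 10 genes in the 3 Al samples (red, left) and the 3 control samples (blue, right), where points are samples and black bars are mean ± SD, left out for APX2. The groups do not overlap for CAT2, CAT3, CSD1 and APX1, while APX2 has a single control sample above 0, at 0.05.

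The sequenced depth was alike in the samples, at an estimated 21500000 to 22000000 fragments each, read from the steps between low FPKM values. ALMT1, the malate transporter gene known for its induction by Al, averaged 15.4 ± 2.20 FPKM in Al roots and 0.567 ± 0.142 FPKM in control roots (SD, n = 3 each). All 10 genes that mark root cell types were above 1.6 FPKM in every sample (lowest value 1.63). Of them, 8 were called lower after Al, beside 38.5% of all genes tested. The summed level of the 10 was 156 to 159 FPKM in Al roots and 198 to 227 FPKM in control roots. Among these, the root hair and epidermal genes GL2 and COBL9 changed by -1.57 and -1.33 on the log2 scale, and the others that fell were SMB, PLT1, PLT2, PIN2, WER and CASP1. The groups overlapped for CASP1, whose call was lost in 6 of the 16 alternatives (adjusted p up to 0.174, with median-ratio scaling, and 0.0664 without Al replicate 1, 0.0814 without Al replicate 2, 0.0834 without control replicate 1 and 0.0718 without control replicate 2), and PIN2 and WER lost theirs in 1 each (0.127 with a replicate block and length correction for PIN2, 0.0544 with no filter for WER). Genes of shoot photosynthesis, 8 in all, summed to 24.6 to 31.0 FPKM in Al roots and 29.2 to 34.1 FPKM in control roots, and 3 of them stayed under 1 FPKM in every sample. The part that a change in cell makeup has in the values below was not tested.

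The catalase CAT2 (AT4G35090, chromosome 4, 16700312 to 16703504, minus strand of TAIR10.1) encodes 492 amino acids and is best known as the leaf enzyme that removes photorespiratory hydrogen peroxide. It had 218.73, 212.48 and 225.32 FPKM in Al roots, against 319.93, 316.07 and 308.82 FPKM in control roots. The samples of each group lay close together and the gap between the groups was wide. The mean was 218.8 ± 6.42 FPKM in Al roots and 314.9 ± 5.64 FPKM in control roots (SD, n = 3 each). The log2 change was -0.52 (SE 0.061, 95% interval -0.66 to -0.39, adjusted p = 9.54e-05 by limma). CAT2 ranked 2960 among the 7106 genes called lower, ordered by size of change, so many genes fell further. It overlaps the opposite-strand gene AT4G35080 over 95 bases. That gene had 43.85 to 44.8 FPKM in Al roots and 57.44 to 61.44 FPKM in control roots, and whether the authors' counting used strand is not given in the sources used here.

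CAT3 (AT1G20620, chromosome 1, 7142972 to 7146540, plus strand) encodes up to 551 amino acids in the 6 transcripts annotated, and CAT1 (AT1G20630, 7146636 to 7150180, plus strand) lies 95 bases behind it. The CAT3 protein is 77.2% identical to CAT2 and 79.1% identical to CAT1, and CAT1 and CAT2 are 86.2% identical. No stretch of 50 bases in the longest transcript of any of the 10 genes occurs, read in the same direction, in an annotated transcript of another gene. Matches to the opposite strand, as in overlapping genes, were not searched. CAT3 had 218.42, 224.61 and 272.31 FPKM in Al roots, against 349.75, 352.11 and 323.16 FPKM in control roots. Al sample 3 was the highest of its group and control sample 3 the lowest of its own, but the groups stayed apart. The means were 238.4 ± 29.5 FPKM in Al roots and 341.7 ± 16.1 FPKM in control roots, a log2 change of -0.52 (SE 0.092, 95% interval -0.73 to -0.31, adjusted p = 0.0011). The ratio of CAT2 to CAT3 within a sample averaged 0.925 ± 0.0889 in Al roots and 0.923 ± 0.0298 in control roots, and the samples overlapped.

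CAT1, a catalase with its highest known levels in pollen and seeds, was the low member of the class. It had 13.62, 11.31 and 11.96 FPKM in Al roots, against 13.29, 14.94 and 16.18 FPKM in control roots. Al sample 1 lay above control sample 1, so the groups overlapped. The log2 change was -0.25 (SE 0.097, 95% interval -0.47 to -0.03, adjusted p = 0.0506 by limma), just short of the threshold. It passed as lower with Al replicate 1 left out (-0.32, adjusted p = 0.0276), with control replicate 1 left out (-0.32, adjusted p = 0.028) and with TPM scaling (-0.32, adjusted p = 0.0222), and over all alternatives its adjusted p ranged between 0.0222 and 0.338. An estimated 543 to 657 fragments in Al roots and 629 to 776 in control roots stood behind these values, a counting error of 3.59% to 4.29%.

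The promoters of CAT2 and CAT3 are shown with those of CSD1 and APX1, since these 4 genes carry the changes and differ in direction. Each sequence is the 250 bases before the annotated gene start in TAIR10.1 (RefSeq), read 5′ to 3′ on the gene's strand. Capitals mark matches to GTAC, the core of the sites bound by SPL7 (the regulator of the copper deficiency response), to GAANNTTC, a short form of the heat shock element, or to CGCG, the core of the box bound by calmodulin-binding transcription activators. All 3 patterns read the same on both strands. The CAT2 promoter covers chr4:16703505-16703754 on the minus strand and the CAT3 promoter chr1:7142722-7142971 on the plus strand. The CSD1 promoter covers chr1:2826810-2827059 and the APX1 promoter chr1:2437031-2437280, both on the plus strand.
CAT2 promoter: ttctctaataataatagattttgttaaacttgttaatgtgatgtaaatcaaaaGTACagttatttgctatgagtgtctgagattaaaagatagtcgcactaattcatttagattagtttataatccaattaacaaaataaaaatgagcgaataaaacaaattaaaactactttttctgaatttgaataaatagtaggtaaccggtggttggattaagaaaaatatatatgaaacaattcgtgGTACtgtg
CAT3 promoter: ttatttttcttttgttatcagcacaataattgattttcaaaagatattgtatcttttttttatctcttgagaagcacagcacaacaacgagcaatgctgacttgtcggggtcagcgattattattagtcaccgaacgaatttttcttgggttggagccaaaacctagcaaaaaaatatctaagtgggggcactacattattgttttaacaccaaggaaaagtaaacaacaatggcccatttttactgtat
CSD1 promoter: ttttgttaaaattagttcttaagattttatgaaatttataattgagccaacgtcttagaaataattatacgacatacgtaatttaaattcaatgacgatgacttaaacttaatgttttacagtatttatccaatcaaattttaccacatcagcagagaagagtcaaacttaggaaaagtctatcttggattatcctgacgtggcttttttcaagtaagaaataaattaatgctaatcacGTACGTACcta
APX1 promoter: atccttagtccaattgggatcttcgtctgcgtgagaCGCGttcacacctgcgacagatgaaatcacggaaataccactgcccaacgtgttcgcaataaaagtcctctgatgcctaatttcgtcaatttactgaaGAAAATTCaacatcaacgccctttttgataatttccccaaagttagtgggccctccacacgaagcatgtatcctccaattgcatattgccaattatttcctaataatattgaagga
GTAC occurred 2 times in the CAT2 window and 2 times, side by side, in the CSD1 window, and was present in 34.4% of the 18385 promoters of the same length. The APX1 window held GAANNTTC with its first base at position -116 from the gene start and CGCG at position -214, which were present in 9.24% and 10.9% of promoters. Among the members without a call, the APX2 window also held GAANNTTC at -61, CGCG at -138 and GTAC at -233. The windows of CSD3 and FSD1 held GTAC at -132 and -145. The CAT1 window reaches into the CAT3 gene, which ends 95 bases before the start of CAT1. It held none of the 3 patterns, nor did the windows of CAT3, CSD2 and MSD1. The 2 genes that rose thus shared none of them, nor did the 2 that fell. A match describes letters only, and binding was not measured.

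CSD1 (AT1G08830, chromosome 1, 2827060 to 2829315, plus strand) encodes a Cu/Zn SOD of 152 amino acids in the cytosol. It had 225.78, 208.52 and 211.2 FPKM in Al roots, against 150.68, 145.88 and 142.78 FPKM in control roots. The lowest Al sample was well above the highest control sample. The means were 215.2 ± 9.29 FPKM in Al roots and 146.4 ± 3.98 FPKM in control roots (SD, n = 3 each). The log2 change was 0.55 (SE 0.062, 95% interval 0.41 to 0.69, adjusted p = 7.73e-05 by limma), and CSD1 ranked 2211 among the 3933 genes called higher. It overlaps the opposite-strand gene AT1G08840 over 211 bases, whose level was 1.52 to 1.61 FPKM in Al roots and 2.45 to 2.71 FPKM in control roots.

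The plastid Cu/Zn SOD gene CSD2 (AT2G28190, chromosome 2, 12014412 to 12016569, plus strand, 216 amino acids, 67.1% identical to CSD1) had 68.76, 74.74 and 77.22 FPKM in Al roots, against 82.7, 78.48 and 68.13 FPKM in control roots. Samples of both groups were interleaved. The log2 change was -0.05 (SE 0.083, 95% interval -0.24 to 0.14, adjusted p = 0.615), an interval that leaves out a rise of the size seen for CSD1 (0.55). The ratio of CSD1 to CSD2 within a sample was 3.28, 2.79 and 2.74 in Al roots, against 1.82, 1.86 and 2.1 in control roots, with no overlap. The exact two-sided permutation test of this ratio gave p = 0.1, the smallest that 3 samples against 3 allow (adjusted p = 0.15 over the 36 ratios between the 9 tested members). Of the 36 ratios, 24 had no overlap and this same p, every ratio with CSD1 among them, so the separation was not particular to this pair.

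CSD1, CSD2 and CCS, the copper chaperone that activates both enzymes, are known targets of the microRNA miR398, which accumulates when copper is scarce. The mature miR398 sequences are shown because CSD1 and CSD2 share this regulator and yet differed after Al. They were read from TAIR10.1 at chr2:1041012-1041032 (miR398a-3p) and at chr5:4691107-4691127 (miR398b-3p), both on the plus strand, and capitals mark the seed, bases 2 to 8. The mature miR398c-3p at chr5:4694778-4694798 has the sequence of miR398b-3p, and all 3 have 1 seed.
miR398a-3p: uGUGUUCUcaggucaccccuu
miR398b-3p: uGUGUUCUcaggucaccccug
The matching stretches of the target transcripts follow, with capitals for the bases opposite the seed.
CSD1 site: aaggggtttcctgAGATCACa
CSD2 site: tgcgggtgacctgGGaAACATa
CCS site: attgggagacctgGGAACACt
The CSD1 stretch lies in the 5′ UTR and spans an intron (chr1:2827177-2827685), with 3 mismatches to miR398a-3p. The CSD2 stretch lies in the coding sequence (chr2:12015572-12015593, plus strand), with 1 mismatch to miR398b-3p, 4 G:U pairs and a bulged base, the lower-case a within the capitals. The CCS stretch also lies in the coding sequence (chr1:4267521-4267541, minus strand), with 4 mismatches to miR398a-3p and 1 G:U pair. By a score that weights mismatches and G:U pairs, where lower is better, CSD1 and CCS scored 5.0 and CSD2, with its bulge, 6.0. An ungapped match at least as good as those of CSD1 and CCS was found in 7 of 18386 longest transcripts (0.0381%). The limit was set by these genes and leaves out CSD2, so the share is a description and no test. The level of miR398 itself was not analysed here. CCS had 36.55, 36.4 and 35.42 FPKM in Al roots, against 39.72, 44.8 and 43.14 FPKM in control roots. All Al samples were thus below all control samples, with a log2 change of -0.23 (SE 0.065, adjusted p = 0.0138). This call was lost with median-ratio scaling (adjusted p = 0.293), with a replicate block and GC correction (adjusted p = 0.145) and without control replicate 2 (adjusted p = 0.0606), within a range of 0.0048 to 0.293 over all alternatives. Of these 3 targets, CSD1 was called higher, CCS lower and CSD2 neither.

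CSD3 (AT5G18100, chromosome 5, 5987187 to 5988885, plus strand, 164 amino acids), the peroxisomal Cu/Zn SOD, was the lowest SOD member. It had 22.68, 21.23 and 20.62 FPKM in Al roots, against 23.49, 21.06 and 27.88 FPKM in control roots, and the groups overlapped. Its log2 change of -0.15 did not pass the test (SE 0.099, 95% interval -0.38 to 0.07, adjusted p = 0.214). It was called lower in a single alternative, the replicate block with a correction for transcript length (-0.38, adjusted p = 0.0247; range over all alternatives 0.0247 to 0.93). Its values are uncertain if strand was ignored in counting, since it overlaps AT5G18110 over 142 bases (120.4 to 128.03 FPKM in Al roots, 138.67 to 157.2 FPKM in control roots) and the long non-coding RNA AT5G02875 over 405 bases.

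FSD1 (AT4G25100, chromosome 4, 12884300 to 12887011, minus strand, 212 amino acids) encodes an iron SOD whose transcript is known to rise when copper is scarce. It had 132.49, 130.77 and 162.68 FPKM in Al roots, against 166.61, 169.82 and 139.71 FPKM in control roots. Sample 3 of each group lay on the other group's side, the high one among the Al samples and the low one among the controls. It changed by -0.16 on the log2 scale (SE 0.1, 95% interval -0.40 to 0.08, adjusted p = 0.21). FSD1 was called lower without Al replicate 3 (-0.26, adjusted p = 0.0414) and with quantile normalization (-0.28, adjusted p = 0.039), within a range of 0.039 to 0.926.

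The manganese SOD of mitochondria, MSD1 (AT3G10920, chromosome 3, 3417940 to 3419892, plus strand, 231 amino acids), had 112.05, 121.5 and 119.08 FPKM in Al roots, against 112.33, 106.97 and 103.39 FPKM in control roots. Only Al sample 1 lay within the control range, just under control sample 1. On the log2 scale MSD1 changed by 0.13 (SE 0.063, 95% interval -0.015 to 0.27, adjusted p = 0.11). MSD1 was called higher with median-ratio scaling (0.27, adjusted p = 0.00952), which sets the median change of all genes close to 0, and with a replicate block and GC correction (0.22, adjusted p = 0.0448), and its direction turned with the length correction in place of the GC one (-0.02, adjusted p = 0.853).

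APX1 (AT1G07890, chromosome 1, 2437281 to 2439665, plus strand, 250 amino acids), the cytosolic APX, showed the greatest change of the 9 tested members. It had 530.64, 549.62 and 526.93 FPKM in Al roots, against 298.94, 290.59 and 266.56 FPKM in control roots. Replicates differed by far less than the groups did. The means were 535.7 ± 12.2 FPKM in Al roots and 285.4 ± 16.8 FPKM in control roots (SD, n = 3 each), a rise of 87.7%. The log2 change was 0.91 (SE 0.071, 95% interval 0.75 to 1.07, adjusted p = 7.8e-06 by limma). An estimated 15294 to 16250 fragments in Al roots and 7881 to 8717 in control roots stood behind these values. APX1 ranked 1342 among the 3933 genes called higher, so it was not among the most changed genes of the series. APX1 also was 1 of 4 members, with CSD1, CAT2 and CAT3, that were called in the same direction in all 16 alternative fits.

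APX2 (AT3G09640, chromosome 3, 2956156 to 2958330, plus strand, 251 amino acids, 78.3% identical to APX1) is a cytosolic APX known for its induction by heat and high light. It was listed at 0 in the 3 Al samples and in control samples 1 and 3, and at 0.05 FPKM in control sample 2, which is about 1 fragment. A count of 0 allows up to 3 fragments, or 0.135 FPKM, so no difference was detectable at this depth. HSFA2, the heat shock factor known to drive APX2, did not pass the filter on low values. It had 2.04, 1.34 and 0.72 FPKM in Al roots, against 0.31, 0.56 and 0.34 FPKM in control roots, and the groups did not overlap.

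**Figure D2:**
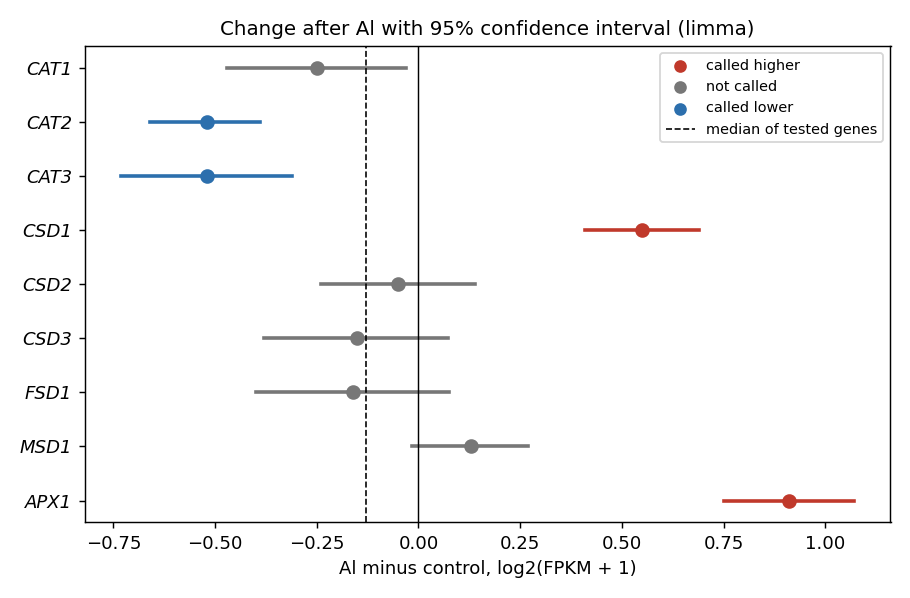
Change of the 9 tested genes on the log2(FPKM + 1) scale, Al minus control (points), with 95% intervals (lines) from limma. The dashed line is the median of the 18463 genes tested, -0.13. CAT2 and CAT3 (blue) lie wholly below it and CSD1 and APX1 (red) wholly above 0, while the intervals of the 5 grey genes reach close to or across 0.

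The order of levels changed with these shifts, as FPKM is per length and can be compared between genes. In Al roots APX1 came first, at 526.93 to 549.62 FPKM. CAT3, CAT2 and CSD1 followed, whose ranges overlapped from one to the next, and then FSD1, MSD1, CSD2, CSD3 and CAT1, each of whose ranges was apart from that of its neighbours. In control roots CAT3 came first, then CAT2 and APX1, each apart from the next. FSD1 and CSD1 came after them with overlapping ranges, and MSD1, CSD2, CSD3 and CAT1 kept their places. All of the major members ranked high in the transcriptome. In control roots CAT3 was above 99.2% of the genes in the table, CAT2 above 99% and APX1 above 98.8%, whereas CAT1 was above 65.5%.

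Summed by class, catalase transcripts had 450.8, 448.4 and 509.6 FPKM in Al roots, against 683.0, 683.1 and 648.2 FPKM in control roots. SOD transcripts summed to 561.8, 556.8 and 590.8 FPKM in Al roots, against 535.8, 522.2 and 481.9 FPKM in control roots. The 2 APX members, in effect APX1 alone, had sums of 526.9 to 549.6 FPKM in Al roots and 266.6 to 298.9 FPKM in control roots. No class overlapped between the groups, and the difference was wide for catalase and APX and narrow for SOD. The total of the 10 genes differed little, at 1543, 1555 and 1627 FPKM in Al roots and 1518, 1496 and 1397 FPKM in control roots, so the make-up of the total shifted more than its size. Catalase made up 29.8% ± 1.33 of it in Al roots and 45.7% ± 0.705 in control roots (SD, n = 3 each). APX made up 34% ± 1.52 in Al roots and 19.4% ± 0.306 in control roots, and SOD 36.2% ± 0.318 in Al roots and 34.9% ± 0.4 in control roots. The APX sum over the catalase sum was 1.15 ± 0.0997 in Al roots and 0.425 ± 0.0132 in control roots, 2.7 times as high after Al.

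Within the classes, CAT2 and CAT3 kept their shares of the catalase transcripts. CAT2 made up 46.7% ± 2.23 of them in Al roots and 46.9% ± 0.692 in control roots, and CAT3 50.7% ± 2.54 in Al roots and 50.9% ± 0.893 in control roots. Among the SODs, CSD1 made up 37.8% ± 2.24 in Al roots and 28.6% ± 0.929 in control roots, with no overlap. FSD1 made up 24.9% ± 2.31 in Al roots and 30.9% ± 1.77 in control roots, also with no overlap. CSD2 made up 12.9% ± 0.608 in Al roots and 14.9% ± 0.663 in control roots, again with no overlap, and the shares of MSD1 and CSD3 overlapped. Shares of a class depend on each other, since a rise of CSD1 by itself lowers the rest. The FPKM values of FSD1 and CSD2 overlapped between the groups. The Cu/Zn SODs together made up 54.5% ± 2.09 of SOD transcripts in Al roots and 48.2% ± 1.29 in control roots. These sums and shares are descriptions of the samples and were given no p.

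**Figure D3:**
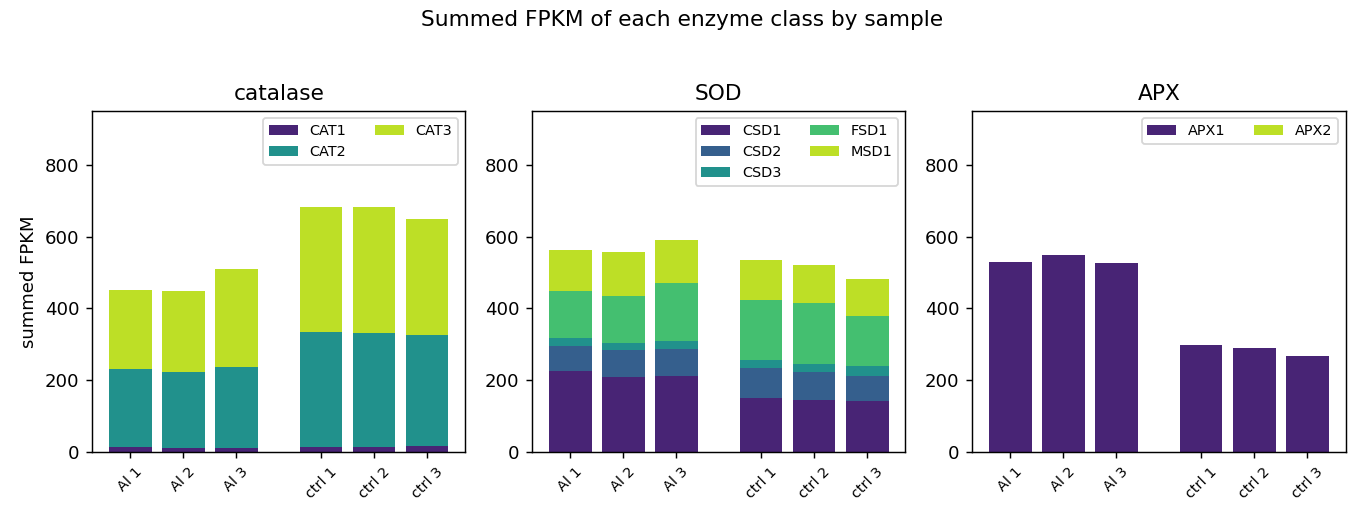
FPKM summed over the catalase, SOD and APX genes in each sample (Al 1 to 3 left, control 1 to 3 right; bars start at 0), with each bar divided by gene. Catalase bars reach 448.4 to 509.6 in Al roots and 648.2 to 683.1 in control roots, APX bars 526.9 to 549.6 in Al roots and 266.6 to 298.9 in control roots, and the lowest CSD1 segment of the SOD bars is taller in Al roots.

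The genes whose levels over the 6 samples were most like those of the leading member of each class had a Pearson r above 0.99, which is a description, since the points share libraries and the groups differ in so many genes. They were CINV1, AT1G33840 and CYP705A21 for CAT3 (r of 0.9975, 0.9975 and 0.9971), AGP1, AT3G28200 and AT5G17350 for CSD1 (r of 0.999, 0.999 and 0.9988), and CYP81F3, AT4G39230 and ANAC087 for APX1 (r of 0.9996, 0.9995 and 0.9994). An r above 0.9 was reached by 2093 genes for CAT3, by 2928 for CSD1 and by 3028 for APX1.

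Of 9 other SOD and APX genes, 7 were tested, of which 1 was higher, 2 were lower and 4 were not called (median -0.23). That is a smaller share called than the 59.8% over all genes tested, whose median was -0.13. Counts of this list and of those below stand beside 21.3% called higher and 38.5% called lower over all genes tested. SAPX, an APX of plastid stroma and mitochondria, had 83.19 ± 5.21 FPKM in Al roots and 63.94 ± 6.87 FPKM in control roots, a log2 change of 0.38 (adjusted p = 0.00439). FSD3, an iron SOD of plastid nucleoids, had 3.917 ± 0.667 FPKM in Al roots and 6.67 ± 0.173 FPKM in control roots (log2 change -0.65, adjusted p = 0.000881), and APX6 changed by -0.47 (adjusted p = 0.00476). The peroxisomal APX3 had 58.89 ± 1.91 FPKM in Al roots and 58.03 ± 0.497 FPKM in control roots and did not pass the test.

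Genes for the proteins that load, fold or regulate these enzymes were lower after Al in 4 of the 6 tested, higher in 1 and not called in 1 (median -0.24). Besides CCS, these were NCA1, a chaperone that catalase needs for its activity (-0.25, adjusted p = 0.0177), SPL7 (-0.26, adjusted p = 0.0131) and CPN20, a plastid co-chaperonin that activates FSD1 (-0.43, adjusted p = 0.000341). The calls of CCS, NCA1 and SPL7 were lost under some alternatives, median-ratio scaling among them (adjusted p of 0.241 for NCA1 and 0.16 for SPL7). LSD1, a zinc finger protein known to bind catalases, was higher, at 57.99 ± 1.67 FPKM in Al roots and 46.66 ± 2.90 FPKM in control roots (0.31, adjusted p = 0.00302). MTM1, which serves the mitochondrial manganese SOD, had a log2 change of 0.06 (adjusted p = 0.567).

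Of 10 genes that regenerate ascorbate and glutathione, 5 were higher, 2 were lower and 3 were not called (median 0.13). The higher ones were the monodehydroascorbate reductase genes MDAR1 (0.19), MDAR2 (0.27) and MDAR3 (0.56), the dehydroascorbate reductase gene DHAR2 (0.52) and the glutathione reductase gene GR1 (0.44), with adjusted p-values of 0.0261 for MDAR1, 0.00692 for MDAR2, 0.000254 for MDAR3, 0.000424 for DHAR2 and 0.00143 for GR1. MDAR3 had 115.68, 110.27 and 96.34 FPKM in Al roots, against 69.14, 72.49 and 74.77 FPKM in control roots. The lower ones, DHAR3 (-0.47, adjusted p = 0.000528) and GR2 (-0.29, adjusted p = 0.00593) both encode plastid-targeted forms. The MDAR1 call was lost in 7 of the 16 alternatives (adjusted p up to 0.128) and that of GR2 in 3 (up to 0.143).

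Of 7 genes of ascorbate synthesis, 2 were higher, 3 were lower and 2 were not called (median -0.15). VTC2, the gene of the main controlling enzyme of the pathway, had 36.37 ± 0.469 FPKM in Al roots and 31.41 ± 1.54 FPKM in control roots (0.21, adjusted p = 0.0182, lost in 4 alternatives, up to 0.0769), and VTC1 changed by 0.23 (adjusted p = 0.00789), or by 0.10 with quantile normalization, where its call was lost (adjusted p = 0.155). The dehydrogenase genes of the last steps were lower, GALDH by -0.48 (adjusted p = 0.00116) and GLDH by -0.43 (adjusted p = 0.00148). The epimerase gene GME was also lower (-0.20, adjusted p = 0.0259), but its call was lost in 4 alternatives. These were median-ratio scaling (0.521) and the fits without Al replicate 2 (0.109), control replicate 1 (0.072) or control replicate 3 (0.0689).

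Glutathione peroxidases, which reduce lipid and hydrogen peroxides with thioredoxin in plants, were higher in 5 of 8, lower in 2 and not called in 1 (median 0.37). GPX4 had 2.17, 1.98 and 1.98 FPKM in Al roots, against 0.72, 0.36 and 0.78 FPKM in control roots, a log2(FPKM + 1) change of 0.92 (adjusted p = 0.000282) that understates the change of so low a gene. GPX6, the most abundant of them after Al, had 245.31, 238.55 and 186.72 FPKM in Al roots, against 152.16, 138.72 and 133.16 FPKM in control roots (0.65, adjusted p = 0.000719), and GPX2, GPX5 and GPX8 rose by 0.45, 0.38 and 0.36. With a replicate block and GC correction GPX2 changed by 0.19 and lost its call (adjusted p = 0.0811), and with a replicate block and length correction GPX8 changed by 0.15 and lost its call (adjusted p = 0.112). GPX1, a plastid form, fell (-0.49, adjusted p = 0.000628), as did GPX3 (-0.22, adjusted p = 0.0252), whose call was lost in 6 alternatives (up to 0.385). GPX7 was not called (0.26, adjusted p = 0.133).

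Peroxiredoxins, which reduce peroxides through cysteine residues, were higher in 1 of the 7 tested, lower in 3 and not called in 3 (median -0.02). PRXIIC had 388.86, 325.85 and 494.55 FPKM in Al roots, against 636.59, 584.33 and 609.14 FPKM in control roots, so the Al samples varied widely but all lay below (-0.62, adjusted p = 0.00354). Of the plastid forms, PRXIIE (-0.47, adjusted p = 0.00282) and 2CPA (-0.39, adjusted p = 0.00103) were lower and 2CPB was higher (0.31, adjusted p = 0.0157). The 2CPB call was lost with a replicate block and length correction (adjusted p = 0.0586), without Al replicate 2 (0.0567) and without control replicate 1 (0.0579). Of the 4 tested genes of glycolate and hydroxy-acid oxidases, peroxisomal enzymes that release hydrogen peroxide, GOX3 was higher (33.94 ± 0.958 FPKM in Al roots and 18.31 ± 1.45 FPKM in control roots, 0.86, adjusted p = 1.35e-05). GOX2 (-0.69, adjusted p = 0.00016) and HAOX2 (-0.57, adjusted p = 0.00122) were lower, and HAOX1 was not called. PRXIIC and GOX2 have close paralogs with which the counting may have split reads, and their values are uncertain to that extent.

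Because the Cu/Zn SODs and FSD1 respond to copper, genes of copper status were also read. Of 10 tested, 2 were higher, 2 were lower and 6 were not called (median 0.07). The metal reductase gene FRO5 had 5.29, 5.53 and 4.16 FPKM in Al roots, against 27.3, 28.31 and 16.83 FPKM in control roots, and its log2 change of -2.04 (adjusted p = 1.76e-05) was the greatest of all these lists apart from ALMT1. Its close neighbour FRO4, with which reads may be shared, was also lower (-0.72, adjusted p = 0.009, lost without the filter at 0.0551). YSL2, a gene of the metal-nicotianamine transporter family, and the plantacyanin gene ARPN were higher (0.75, adjusted p = 0.000918, and 0.71, adjusted p = 0.000971). The copper transporter gene COPT2 (-0.31, adjusted p = 0.0672) and CITF1, a regulator of copper uptake (0.07, adjusted p = 0.549), did not pass the test.

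**Figure D4:**
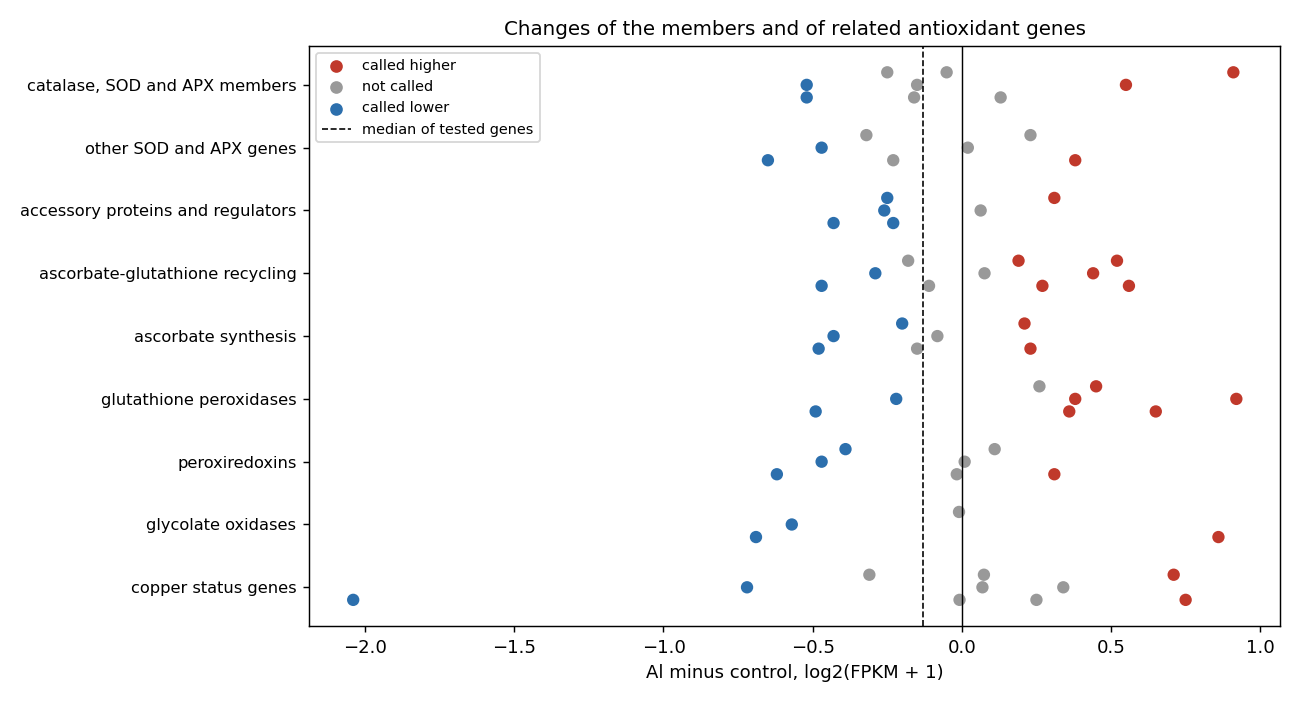
Change of each tested gene on the log2(FPKM + 1) scale, Al minus control, for the 9 tested catalase, SOD and APX members (top) and 8 lists of related genes, with 1 point per gene coloured by the limma call. Every list has genes on both sides, the glutathione peroxidases have 5 of 8 called higher, and FRO5 stands alone at -2.04.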

How the data were processed

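RNA-seq of wild-type roots was used, with 3 Al and 3 control samples grouped and numbered by their titles. The authors deposited FPKM values for 24379 genes, scaled by transcript length and mapped fragments. The aligner, the counter, their annotation and the use of strand are not given in the sources used here. The deposited table also holds the authors' log2 ratio of Al to control with a p-value and q-value, which were not used, and 6 further per-sample columns that repeat the FPKM values, which were not used either. Gene starts and ends in the deposited table equal TAIR10.1 for 23857 of 24174 shared genes, so TAIR10.1 was used for coordinates and sequences.

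Differences were tested with limma 3.58.1 (R 4.3.3) on log2(FPKM + 1), letting the variance trend with the mean, for 18463 genes that reached 1 FPKM in 3 or more samples. The methods name no RNA-seq test. Benjamini-Hochberg adjustment ran over all these genes, with calls at 0.05. Fold changes on this scale understate those of low genes. The procedure was tested on simulated data with 18463 genes, of which 50 changed at each size. It recovered 30% of changes of 0.5, 94% of changes of 1 and 100% of changes of 2 on the log2 scale. In the data 59.8% of genes were called, which makes the adjusted threshold less strict than in the simulation. These shares thus do not give the power of the real fit. Depth was estimated from FPKM steps of genes with 1 transcript, with 82.27% to 86.82% of low values within 0.15 of a whole fragment (30% by chance). The values were therefore not turned back into counts for the test. Fragment numbers given for a gene are estimates from its longest transcript, less certain where several are annotated, as for APX1 (8) and APX2 (2). They cover counting error only.

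The members and the gene lists were chosen with earlier results of these data known. Genes named from a list were those called with an absolute log2 change of at least 1, otherwise the largest rise and fall, with CCS, SPL7, HSFA2, NCA1 and VTC2 always, and for likeness the 3 genes of highest Pearson r. Other called genes of a list, APX3, MTM1, GPX7, COPT2, CITF1 and HAOX1 were named after their values were seen. Alternatives were a pseudocount of 0.1, no filter or an FPKM of at least 1 in every sample, no trend, a replicate block alone or with a loess correction (span 0.3) for GC content or length, TPM, median-ratio or quantile scaling, each sample left out, and stricter thresholds. Figures were drawn with matplotlib 3.10.9 in Python 3.11.15.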

Additional observations from a re-analysis of the deposited data

How the results depend on the processing

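CAT2, CAT3, CSD1 and APX1 kept their direction and their call in all 16 alternative fits. The other lists, with the root, shoot and Al check genes included, held 49 called genes. Of these, 32 kept their call in every alternative that tested them, 17 lost it in at least 1 and none reversed. CSD2, not called, turned to 0.094 with median-ratio scaling and 0.047 with a replicate block and GC correction and ranged between -0.13 and 0.007 with 1 sample left out (0.007 without control replicate 1), and MSD1 turned to -0.017 with a replicate block and length correction. The cause was not tested. Requiring an absolute log2 change of at least 1 left 1190 genes higher, 531 lower and 0 members in each direction. With 0.01 as the limit on adjusted p, 3105 genes were called higher and 5195 lower, with 2 members in each direction. Median-ratio scaling moved the split over all genes to 5381 higher and 4984 lower, against 3933 and 7106, with 3 members higher and 2 lower, and the median change to about 0.

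Same-numbered samples did not deviate together (correlations of -0.251, -0.037 and -0.224, beside -0.146 to 0.317 for differently numbered ones). No shared effect of the replicate number was thus visible. These values cannot show whether the samples were handled in numbered pairs. A replicate block gave 3648 genes higher and 6319 lower and the same 2 and 2 counts of members, and among the list genes only GPX3 lost its call (adjusted p = 0.059).

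Depth limits APX2. The simulation cannot set the limit for the 5 members not called, since its shares do not give the power of the real fit. With 3 samples per group, the limma intervals ran from -0.47 to -0.03 for CAT1 and from -0.24 to 0.14 for CSD2. They ran from -0.38 to 0.073 for CSD3, from -0.4 to 0.075 for FSD1 and from -0.015 to 0.27 for MSD1. Changes within these intervals remain possible, so the 5 members are not shown to be unchanged.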
